A study of Mus musculus with 17 samples.

Results

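Lymphoid tissue inducer (LTi) cells are innate lymphocytes that build lymphoid structures in the gut through lymphotoxin signals and are a source of interleukin-22 and interleukin-17. The etomoxir experiment holds 4 of the 17 samples of a series on PD-1 in intestinal LTi cells, chosen by their titles: 2 count files of cells given vehicle (water) and 2 of cells given etomoxir. All 4 are labelled as cells of adult Pdcd1-/-Rag2-/- mice on the C57BL/6 background, a genotype meant to remove PD-1 and mature T and B cells from both arms. Live Lineage-negative CD127+ KLRG-1-negative c-Kit+ CCR6+ cells were sorted from the lamina propria of the small intestine and kept for 4 days in medium with palmitic acid and L-carnitine. Etomoxir was added at 60 µM during the first 2 days and at 200 µM during the next 2 days, and the other arm received water over the same days. The comparison asks which genes LTi cells express at another level after etomoxir.

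Long-chain fatty acids such as palmitate enter mitochondria as carnitine esters, made by carnitine palmitoyltransferase 1 (CPT1) at the outer membrane and turned back into acyl-CoA by CPT2 inside. Etomoxir, as its CoA ester, blocks CPT1 irreversibly. At high concentrations it is also known to act on other targets, among them the respiratory chain and the pool of free coenzyme A, and to raise oxidative stress.

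The 2 vehicle files held 19630851 and 15723796 counts on genes, and the 2 etomoxir libraries 15535721 and 14556247. Both vehicle files name the same alignment in their headers, and their counts differed by 2.22 times sampling noise (the chi-square statistic divided by its degrees of freedom, over 14021 genes) against 32.7 times over 13372 genes for the etomoxir pair. The vehicle files were therefore summed and counted as 1 sample, so each test set 1 vehicle sample against 2 etomoxir libraries, with 1 residual degree of freedom that comes from the etomoxir pair alone. The labels do not say whether the libraries came from separate mice or cultures, so p-values measure the spread between these libraries, which may be technical. Xist stood at 327 and 337 CPM (counts scaled to library size) in the vehicle files and at 229 and 208 CPM in the etomoxir libraries, and the Y-linked Ddx3y at 80.2, 84.3, 70.5 and 62.5 CPM in the same order. Other Y-linked genes differed more between the arms, with Eif2s3y at 89.8, 93.6, 48.3 and 57.2 CPM and Uty at 31.3, 32.4, 11.4 and 5.85 CPM, of which Uty was called lower by edgeR (adjusted p = 0.0193) and not after GC and length correction (adjusted p = 0.076). Each library thus held reads of Xist and of Y-linked genes (looked up after the data were seen), and their part in the results below was not tested. Mitochondrially encoded genes took 1.51% and 1.6% of vehicle counts and 0.927% and 1.14% of etomoxir counts. CPM values here and below are scaled by the trimmed mean of M values (TMM).

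The genes that the genotype names were examined first. Rag2 stood at 1.16 and 1.78 CPM in the vehicle files and at 1.82 and 3.88 CPM in the etomoxir libraries. Pdcd1, which encodes PD-1 (mm10 chr1:94038305-94052553, minus strand), gave 82.8 and 76.5 CPM with vehicle and 190 and 263 CPM with etomoxir, a log2 fold change of 1.5 (SE 0.25, edgeR adjusted p = 8.04e-05). Reads were therefore still assigned to Pdcd1 and Rag2 in mice labelled as lacking them. The counts do not show which exons they came from, so the Pdcd1 values describe transcript counted at the locus and say nothing of PD-1 protein. Rag1, which the genotype does not name, had no count in any of the 4 libraries.

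Transcripts of the sorting antigens Ccr6, Kit and Il7r were present in all 4 libraries. Ccr6 stood at 1772 and 1743 CPM with vehicle and at 1820 and 1969 CPM with etomoxir. Kit gave 130 and 136 against 112 and 98.5 CPM, and Il7r, which encodes CD127, 148 and 158 against 97.3 and 141 CPM. None of these 3 genes passed the edgeR test. Ltb (lymphotoxin β), Tnfsf11 (the cytokine RANKL) and Id2, a regulator that innate lymphocytes require, were present in every library and did not pass it either. Ltb stood at 141 and 127 CPM against 214 and 184 CPM, above vehicle in both etomoxir libraries.

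Across the 16495 genes tested, edgeR called 1519 (9.21%) at an adjusted p below 0.05, of which 1005 (6.09% of those tested) were higher and 514 (3.12%) lower with etomoxir. For each of the 1519 called genes both etomoxir libraries lay on the same side of both vehicle files. That separation together with a fold of 2 or more was itself common, at 2982 genes (18.1%) upward and 3366 (20.4%) downward. DESeq2 called 1410 genes, of which 1274 were also called by edgeR. limma-voom called 0 genes, with 3291 at an unadjusted p below 0.05 against 3489 in edgeR, so no call below rests on every method. The share called rose with expression, from 7.26% of genes with a mean of 1 to 10 CPM to 11.7% at 10 to 100 CPM, 28.2% at 100 to 1000 CPM and 37.6% above, so a list of abundant genes is set against a higher share than 9.21%.

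**Figure D1:**
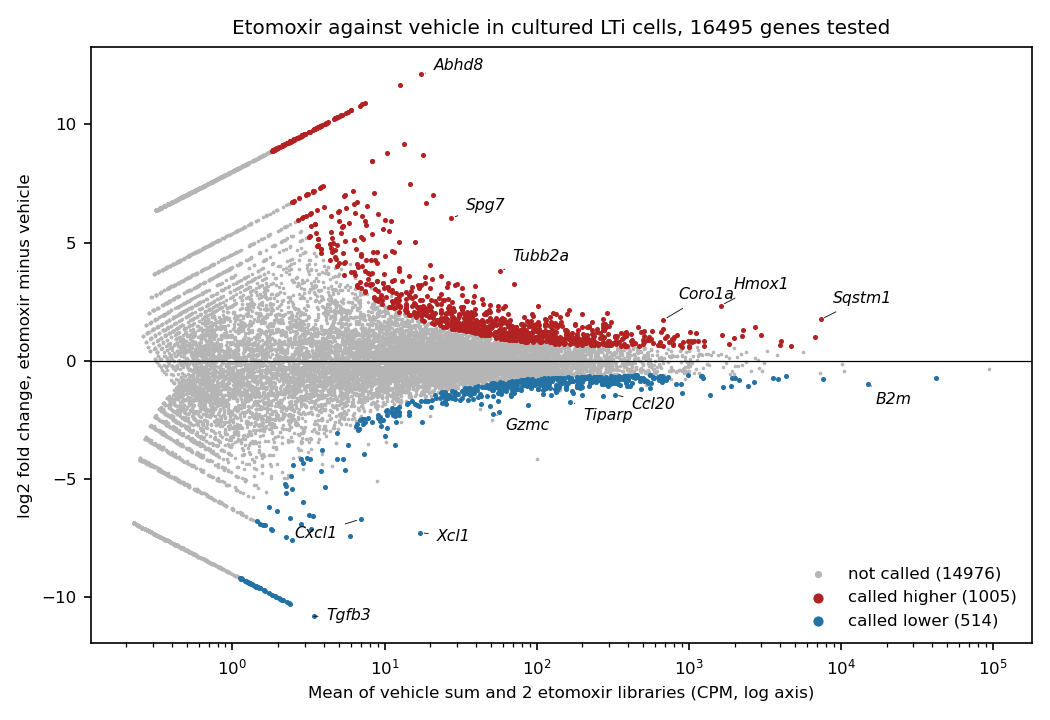
Each point is 1 of the 16495 genes tested, with the mean of the vehicle sum and the 2 etomoxir libraries on the x axis (CPM, log scale) and the log2 fold change on the y axis (etomoxir minus vehicle). The 1005 genes called higher are red and the 514 called lower blue, and the straight bands at the left hold genes with 0 or few counts in 1 arm.

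Fold changes also moved with base composition and transcript length. Among genes with a mean of 10 CPM or more, the median log2 fold change climbed from -0.36 where the longest transcript had under 40% G and C to 0.42 at 60% and above. Transcripts shorter than 1000 bases had a median of -0.58, those of 2000 to 3000 bases 0.23, and those of 6000 bases or more -0.26. The 2 etomoxir libraries differed from each other by no more than 0.08 in any GC class, and by -0.23 in the shortest length class. With 1 vehicle sample, such a difference between libraries and an effect of the treatment cannot be told apart. A fit corrected for both features, added after the data were seen, called 1316 genes, and 982 of the 1519 calls (64.6%) were among them. It also made calls of its own. Below, "after correction" refers to this fit. With GC content alone corrected, 818 genes were higher and 646 lower, in place of 1005 and 514.

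**Figure D2:**
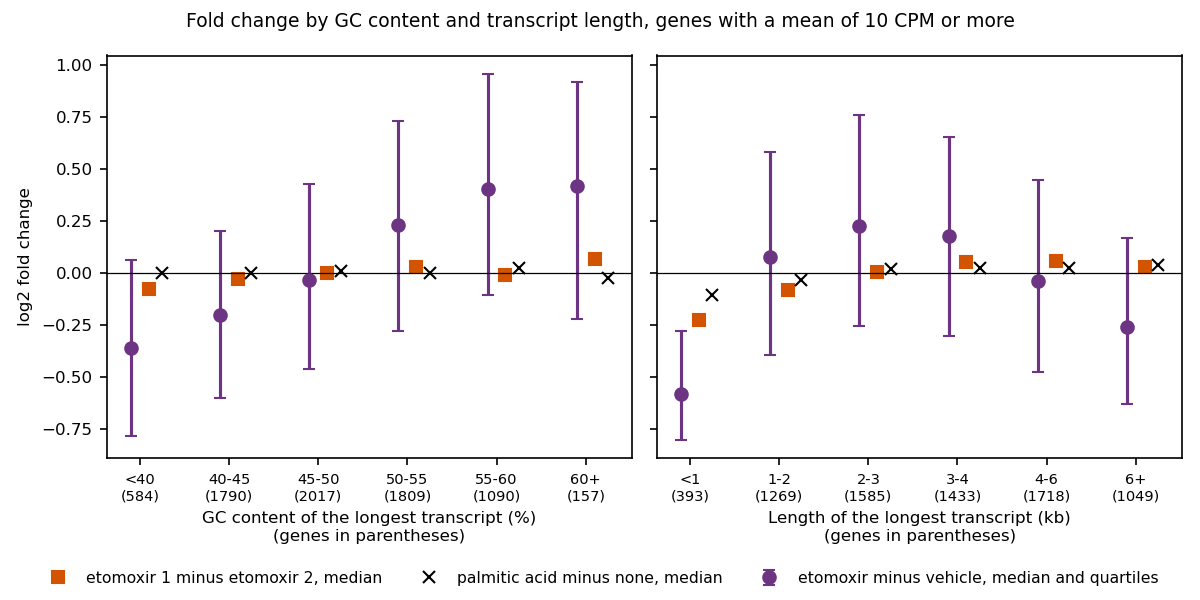
Median log2 fold change by GC content and by length of the longest annotated transcript, for genes with a mean of 10 CPM or more. Purple points show etomoxir minus vehicle with quartiles, orange squares the first etomoxir library minus the second, and crosses palmitic acid minus none in separate cultures; the purple medians run from -0.36 to 0.42 across GC classes.

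Heme oxygenase 1 and genes of the NRF2 antioxidant response were higher with etomoxir. NRF2 is held back by KEAP1 in resting cells and, when released by oxidants or electrophiles, pairs with small MAF proteins at antioxidant response elements. Of the 29 tested genes of a list of NRF2 and heme genes, 12 were called higher and none lower, and the list's median log2 fold change was 0.64 against 0.02 over all tested genes. Of the 12, 9 were also called after GC and length correction, and Txnrd1, Gsr and G6pdx were not (adjusted p = 0.14, 0.22 and 0.084). That fit called 1 member lower, Fth1, and correction for GC content alone gave 9 higher and 3 lower.

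The upstream sequence of list members called higher is shown because several hold the core of that element. The motif searched was TGACNNNGC on either strand, in RefSeq windows (GRCm38.p6) from 250 bases before to 50 bases after each annotated start. Of the 12 genes, 9 had a window, and 6 of these 9 (66.7%) held the motif, compared with 4 of 15 list members that were tested and not called (26.7%), with 16.7% of all tested genes with a window and with 18.3% of all genes called higher. The letters below are the 250 bases before the start on the gene's own strand, with the match in capitals, and a match describes these letters and is no evidence of binding. The windows are Gclm (chr3:122245307-122245556, plus strand), Mafg (chr11:120633548-120633797, minus strand) and Txnrd1 (chr10:82858956-82859205, plus strand). In all 3 the match lies on the other strand, starting 134 bases before the start in Gclm, 222 in Mafg and 92 in Txnrd1. G6pdx, which is not shown, has its match 57 bases before the start. Pgd and Srxn1, the other genes with the motif, have their matches behind the start.
Gclm: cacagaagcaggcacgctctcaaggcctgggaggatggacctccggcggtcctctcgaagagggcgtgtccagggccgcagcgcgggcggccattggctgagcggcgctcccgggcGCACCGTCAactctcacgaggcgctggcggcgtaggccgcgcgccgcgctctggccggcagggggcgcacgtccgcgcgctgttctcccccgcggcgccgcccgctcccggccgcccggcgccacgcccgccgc
Mafg: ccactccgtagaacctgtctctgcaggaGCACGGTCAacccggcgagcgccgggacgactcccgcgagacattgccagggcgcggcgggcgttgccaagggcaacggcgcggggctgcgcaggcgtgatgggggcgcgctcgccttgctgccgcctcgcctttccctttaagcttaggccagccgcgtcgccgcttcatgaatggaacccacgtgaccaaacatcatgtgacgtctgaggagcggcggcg
Txnrd1: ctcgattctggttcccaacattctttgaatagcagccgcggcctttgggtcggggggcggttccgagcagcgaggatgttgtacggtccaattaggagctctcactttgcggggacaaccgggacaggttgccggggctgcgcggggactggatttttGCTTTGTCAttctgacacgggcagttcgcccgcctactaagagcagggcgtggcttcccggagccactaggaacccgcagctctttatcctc

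Hmox1 (mm10 chr8:75093621-75100589, plus strand), which breaks heme down to biliverdin, iron and carbon monoxide, stood at 449 and 423 CPM in the vehicle files and at 2483 and 1944 CPM in the etomoxir libraries. Both etomoxir values were far above both vehicle values, a log2 fold change of 2.34 (SE 0.23, edgeR adjusted p = 4.08e-09). It was called in 17 of the 18 alternative analyses, all but limma-voom. Slc48a1, the lysosomal heme exporter, gave 136 and 133 against 376 and 350 CPM. Fech, which lies outside the list and inserts iron into protoporphyrin in the last step of heme synthesis, had 8 counts over both vehicle files against 731 and 235 in the etomoxir libraries. The ferritin heavy chain gene Fth1 did not pass the test, at 12663 and 12849 against 8268 and 10571 CPM.

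Other members called higher encode enzymes that supply NADPH or reduce thiols. Pgd, an enzyme of the oxidative pentose phosphate pathway, gave 41.6 and 41.5 against 168 and 174 CPM (log2 fold change 2.04, SE 0.26, adjusted p = 1.64e-06). G6pdx, which feeds that pathway, gave 198 and 196 against 379 and 407 CPM (1.00, SE 0.22, adjusted p = 0.00197). Srxn1, which restores overoxidized peroxiredoxins, gave 122 and 117 against 377 and 324 CPM (1.56, SE 0.23, adjusted p = 1.53e-05). In each case the etomoxir pair differed from one another by far less than from the vehicle files. Gclm, the modifier subunit of the enzyme that starts glutathione synthesis, stood at 42.9 and 41.3 against 91.4 and 88.3 CPM, and Nqo1, a quinone reductase, at 31.1 and 27.4 against 80.5 and 85.0 CPM. Osgin1, an oxidative stress-induced growth inhibitor, stood at 11 and 8.71 against 66.5 and 55.1 CPM. Sqstm1, the autophagy adaptor p62 that also binds KEAP1, was among the most abundant genes of the group, at 2904 and 2798 against 11700 and 7554 CPM (1.75, SE 0.25, adjusted p = 0.000147). Nfe2l2, which encodes NRF2 itself, did not pass the test, at 405 and 392 against 405 and 374 CPM.

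**Figure D3:**
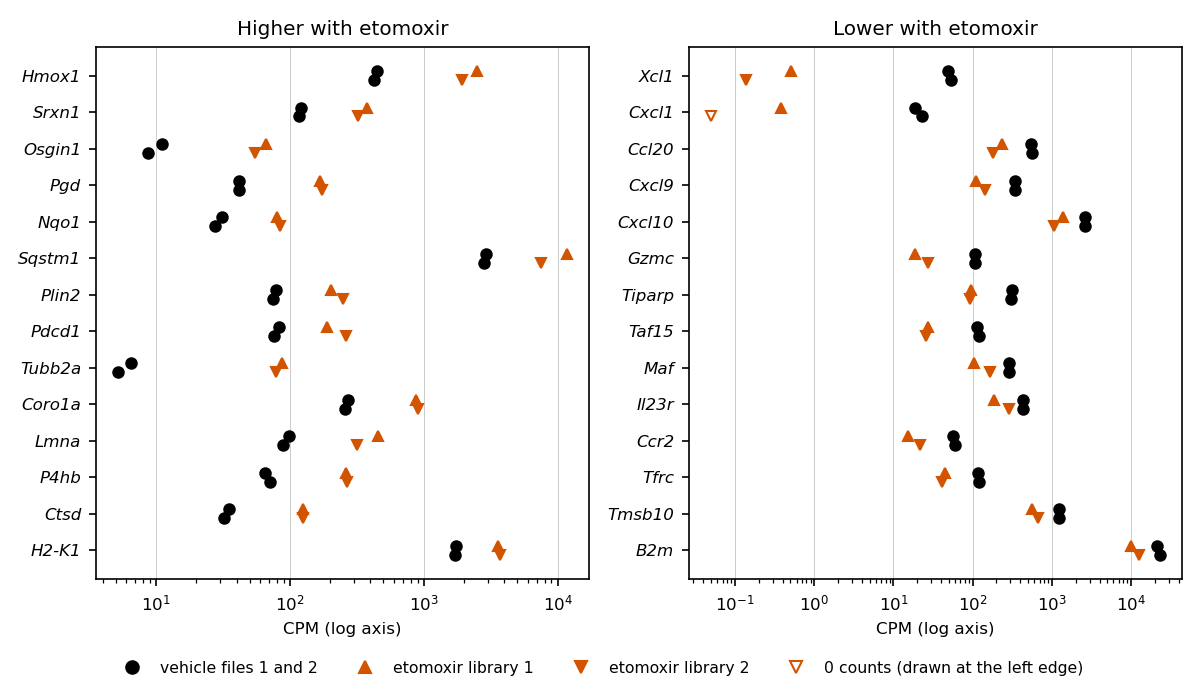
CPM (log axis) of 28 genes in each library: black circles are the 2 vehicle files, orange triangles the 2 etomoxir libraries, and an open triangle stands for 0 counts. In each of the 28 rows the 2 etomoxir triangles lie on one side of both vehicle circles, and Xcl1 drops from 48.2 and 53.5 CPM to 0.503 and 0.136 CPM.

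Most of the tested chemokine genes were called lower. Of 10 tested chemokine genes 7 were called lower and none higher, with a list median of -1.27, and 6 of the 7 were also called lower after GC and length correction, as was Cxcl2. Xcl1 (mm10 chr1:164931644-164935527, minus strand), the ligand that draws XCR1+ dendritic cells, had 912 and 811 counts in the vehicle files and 8 and 2 counts in the etomoxir libraries, which is 48.2 and 53.5 against 0.503 and 0.136 CPM. Its log2 fold change of -7.26 (SE 0.66, edgeR adjusted p = 1.82e-09) came with the smallest p of all genes tested. Xcl1 was called in 17 of 18 alternatives, all but limma-voom, with log2 fold changes between -8.52 and -6.19.

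The other 6 called chemokines had log2 fold changes from -6.69 for Cxcl1 to -0.70 for Ccl17. Ccl20, the ligand of the LTi receptor CCR6, gave 550 and 569 against 236 and 181 CPM (log2 fold change -1.42, SE 0.21, adjusted p = 1.23e-05). The interferon-inducible CXCR3 ligands Cxcl9 and Cxcl10 gave 342 and 343 against 111 and 142 CPM and 2659 and 2594 against 1384 and 1051 CPM. The neutrophil chemoattractant Cxcl1 was nearly lost, at 18.6 and 22.8 against 0.377 and 0 CPM, and its relative Cxcl3 stood at 455 and 451 against 268 and 166 CPM. Ccl17 gave 913 and 928 against 452 and 677 CPM (-0.70, SE 0.22, adjusted p = 0.0398), and its direction turned after GC and length correction (log2 fold change 0.13, adjusted p = 0.75). Cxcl2, at 274 and 284 against 145 and 216 CPM, and Cxcl16, which lay above vehicle at 29.3 and 27.7 against 32.3 and 31.6 CPM, did not pass the uncorrected test. Neither did Ccl5, which had 44 counts over the vehicle files and none in the etomoxir libraries.

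Genes of killer lymphocytes were also below vehicle, with fewer calls. Of 13 tested genes of a cytotoxic and NK cell list 3 were called lower and none higher, 12 had a log2 fold change under 0, and the list median was -1.32. Gzmc, which encodes granzyme C, gave 108 and 109 against 18.7 and 27.3 CPM (log2 fold change -2.23, SE 0.31, edgeR adjusted p = 5.53e-06) and was the 1 member still called after correction. With GC content alone corrected Gzmb, Gzmc, Nkg7 and Ifng were the 4 called lower. Klrk1, the activating receptor NKG2D, gave 33.8 and 34.6 against 6.60 and 14.3 CPM, and Srgn, the granule proteoglycan serglycin, 1260 and 1275 against 815 and 865 CPM. Ifng and Gzmb, named here after their values were seen, lay below vehicle in both etomoxir libraries but differed between them and did not pass the test. Ifng stood at 994 and 1028 against 485 and 137 CPM (adjusted p = 0.66), and Gzmb at 263 and 280 against 4.59 and 25.9 CPM (adjusted p = 0.50).

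LTi effector cytokines lay closer to vehicle. Il22 made up the largest share of reads of any cytokine, at 110540 and 109965 CPM with vehicle and 85214 and 87861 CPM with etomoxir, and did not pass the test (log2 fold change -0.35, SE 0.18, adjusted p = 0.276). Il17a gave 1303 and 1315 against 577 and 962 CPM (-0.77, SE 0.25, adjusted p = 0.087). Il17f was called lower, at 57302 and 58587 against 31434 and 38077 CPM (-0.74, SE 0.19, adjusted p = 0.00805), as was Csf2, which encodes GM-CSF, at 5311 and 5329 against 3046 and 3188 CPM (-0.77, SE 0.19, adjusted p = 0.00529). These 2 were the only calls among 14 tested cytokine genes, beside 3.12% called lower and 6.09% called higher over all genes tested. With GC content alone corrected 5 were called lower (Il17a, Il17f, Csf2, Il2 and Ifng) and 1 higher (Areg), with a list median of -0.48 in place of -0.35. With GC content and length corrected none was called, with log2 fold changes of -0.22 for Il17f and 0.03 for Csf2 (adjusted p = 0.39 and 0.96). Both have short transcripts, with a median of 989 bases.

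Among transcription factors and surface receptors of LTi cells, calls went in both directions. Of 34 tested identity genes 4 were higher and 4 lower, beside 6.09% and 3.12% of all genes tested. Of all 1606 tested genes with a mean of 100 to 1000 CPM, 230 were higher and 223 lower. Maf, the factor c-Maf, gave 285 and 289 against 105 and 165 CPM (log2 fold change -1.09, SE 0.24, adjusted p = 0.00385), and Ikzf2, the factor Helios, 94.1 and 100 against 34.5 and 46.1 CPM (-1.27, SE 0.29, adjusted p = 0.00308). Il23r, the receptor for the cytokine that drives interleukin-22 and interleukin-17 output, gave 426 and 434 against 188 and 286 CPM (-0.86, SE 0.23, adjusted p = 0.0153). Il1r1 gave 863 and 889 against 515 and 602 CPM. These genes were lower in both etomoxir libraries, although the pair differed visibly for Maf and Il23r, and Il1r1 was the 1 of the 4 not called after correction (log2 fold change -0.48, adjusted p = 0.0501). Ets1 rose from 93.0 and 96.3 to 192 and 277 CPM and the tetraspanin gene Cd81 from 225 and 223 to 471 and 471 CPM, and both calls held after correction. Tox2 and Nfil3 were the other 2 genes called higher, and neither was called after correction (adjusted p = 0.39 and 0.47).

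Among receptors for migration 2 of 23 tested genes were called higher and 4 lower, beside 6.09% and 3.12% of all genes tested. Integrin β2 (Itgb2) gave 57.9 and 58.4 against 177 and 152 CPM, and integrin β7 (Itgb7), which pairs with α4 in gut homing, 78.3 and 76.1 against 187 and 199 CPM. Ccr2 gave 56.2 and 59.9 against 15.2 and 21.5 CPM (log2 fold change -1.66, SE 0.39, edgeR adjusted p = 0.00399), Gpr18 176 and 185 against 81.4 and 99.1 CPM, and Cxcr4, the receptor for CXCL12, 20.6 and 22.1 against 5.78 and 4.22 CPM. Cd69, which holds lymphocytes in tissue, gave 1665 and 1693 against 1125 and 922 CPM and lost its call after correction (adjusted p = 0.33). Tnfsf14, which encodes LIGHT, a ligand of the lymphotoxin β receptor, rose from 11.5 and 15.3 to 47.7 and 56.4 CPM (1.98, SE 0.40, adjusted p = 0.000843), while Tnfsf10, which encodes TRAIL, fell from 10.2 and 10.04 to 0.189 and 1.29 CPM. Among 24 tested checkpoint genes Pdcd1 was the 1 called higher and Nt5e, the ecto-nucleotidase CD73, the 1 called lower, at 23 and 24.8 against 4.09 and 7.55 CPM. Both counts are near the shares of all genes tested, 6.09% higher and 3.12% lower. Ptgs2, the inducible cyclooxygenase, fell from 25.8 and 27.6 to 4.65 and 4.29 CPM, and Cysltr1, a leukotriene receptor, gave 438 and 444 against 246 and 263 CPM. The decreases of Cxcr4, Tnfsf10 and Nt5e were not called by DESeq2, and that of Cysltr1 was not called after correction (adjusted p = 0.21).

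Signalling feedback genes went both ways. Pim2, a kinase induced by cytokines through STAT5, rose from 1326 and 1236 to 3537 and 3316 CPM (log2 fold change 1.41, SE 0.21, edgeR adjusted p = 1.3e-05), and Cish, a cytokine-induced inhibitor of JAK-STAT signalling, from 486 and 474 to 1048 and 874 CPM. Jak2 fell from 947 and 982 to 555 and 478 CPM. Of 21 tested genes of the NF-κB pathway 7 were called higher, with log2 fold changes from 0.65 to 1.29, and 2 lower. Icam1, an adhesion molecule and NF-κB target, gave 1186 and 1144 against 3224 and 2473 CPM, and it alone of the 7 was called after correction. Rela, Relb, Nfkb2, Nfkbib, Nfkbid and Nfkbia were the other 6. The 2 lower genes were Rel, at 323 and 345 against 230 and 139 CPM, and the antiapoptotic Bcl2a1d, and neither was called after correction (adjusted p = 0.059 and 0.36). Of 27 tested early response genes 5 were higher (Zfp36, Jund, Junb, Ier2 and Atf3) and Fosl2 was lower, and Zfp36, Atf3 and Fosl2 were also called after correction. Tiparp, an ADP-ribosyltransferase induced by the aryl hydrocarbon receptor that feeds back on it, fell from 315 and 306 to 96.6 and 91.9 CPM (-1.72, SE 0.22, adjusted p = 8.64e-07). Ahr itself did not pass the test, at 108 and 110 against 97.3 and 77.1 CPM. Of 7 tested genes of a list for that receptor's pathway Tiparp was the 1 called lower, and Nqo1 and Arnt were called higher. These calls held after correction, and 2 members had log2 fold changes above 0 and 5 below. Of 30 interferon-stimulated genes 3 were called lower (Gbp5, Isg20 and Gbp4) and none higher, beside 3.12% and 6.09% of all genes tested. None of these 3 was called by DESeq2. Ifitm3, which lies outside that list, fell from 94 and 101 to 22.8 and 28.9 CPM.

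Several heavy chain and peptide loading genes of MHC class I antigen presentation were called higher, and the light chain gene was called lower. Of 16 tested genes 7 were called higher and 1 lower, with a list median of 0.75. The classical heavy chains H2-K1 and H2-D1 gave 1728 and 1713 against 3580 and 3697 CPM (log2 fold change 1.08, SE 0.20, edgeR adjusted p = 0.000351) and 4072 and 3956 against 8196 and 8007 CPM. Tapbp, which encodes tapasin, gave 78.4 and 79.4 against 227 and 164 CPM, and the loading chaperones Calr and Pdia3 were called too. B2m, the shared light chain, fell from 21547 and 22892 to 10000 and 12740 CPM (-0.96, SE 0.19, adjusted p = 0.00066). The B2m transcript is 860 bases long, and its log2 fold change was -0.09 after GC and length correction (adjusted p = 0.79). With that correction 4 of the 7 upward calls, H2-K1 among them, remained, while H2-D1 had an adjusted p of 0.053. The corrected fit called 5 members higher in all and 1 lower, another class I heavy chain gene, and the list median was 0.26. Of 13 tested MHC class II genes H2-Eb1 was called higher, and the costimulator gene Cd80 and the class II transactivator Ciita were called lower, Ciita at 19.6 and 19.9 against 2.45 and 4.90 CPM, while Cd74 did not pass the test, at 415 and 394 against 363 and 569 CPM.

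Lysosomal genes were mostly above vehicle. Of 28 tested lysosome and autophagy genes 10 were called higher and 1 lower, 25 had a log2 fold change over 0, the list median was 0.91, and 8 of the 10 were also called after correction. The proteases cathepsin D, Z and B (Ctsd, Ctsz, Ctsb) gave 35.3 and 32.2 against 125 and 125 CPM, 51.7 and 50.7 against 153 and 136 CPM, and 510 and 489 against 814 and 925 CPM. The membrane protein gene Lamp1 gave 112 and 109 against 229 and 262 CPM. Tfe3, a transcription factor of lysosomal genes, gave 18.1 and 18.8 against 81.6 and 48.6 CPM (log2 fold change 1.82, SE 0.37, edgeR adjusted p = 0.00113). Neu1, the lysosomal sialidase, had 4 counts over both vehicle files and 453 and 228 counts in the etomoxir libraries. Gpnmb, a membrane glycoprotein of lysosomes, was the 1 called lower, at 9.68 and 9.64 against 0.126 and 0 CPM.

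Several genes of the cytoskeleton were called higher with small p-values. Of 36 tested cytoskeletal genes 10 were called higher and 2 lower, and 8 of the 10 were also called after correction. The β-tubulin gene Tubb2a gave 6.50 and 5.22 against 86.9 and 79.1 CPM (log2 fold change 3.81, SE 0.37, edgeR adjusted p = 4.08e-09), and a second β-tubulin gene, Tubb4b, 125 and 116 against 401 and 325 CPM. Coro1a, the actin regulator of leukocytes, gave 274 and 257 against 870 and 906 CPM, and Lmna, which encodes lamin A and C of the nuclear envelope, 98.1 and 89.6 against 459 and 316 CPM. Zyx and Wdr1 rose as well. The 2 lower genes were the thymosins Tmsb10, at 1217 and 1224 against 558 and 677 CPM, and Tmsb4x, which encode small actin-binding proteins from short transcripts, and Tmsb10 alone of the 2 was called after correction. The corrected fit called 9 members of this list higher and 3 lower (Actb, Pfn1 and Tmsb10), with a median of 0.15 in place of 0.52. With GC content alone corrected 8 members were called higher and 4 lower. Vav1, the exchange factor that links antigen receptors to Rac, gave 52.7 and 46.5 against 230 and 210 CPM. Other genes among the 20 called higher with the smallest p belong to no list. Of these P4hb, a protein disulfide isomerase, gave 64.8 and 70.5 against 262 and 268 CPM, Calu, the calcium-binding calumenin, 27.2 and 28.7 against 122 and 157 CPM, and Rab1b, a GTPase of transport from the endoplasmic reticulum, 47.0 and 41.7 against 192 and 164 CPM. The zinc importer Slc39a4 gave 52.7 and 54.1 against 225 and 197 CPM. Tfrc, the transferrin receptor that imports iron, went the other way, from 117 and 121 to 44.3 and 41.3 CPM (-1.47, SE 0.27, adjusted p = 0.000275). It was the 1 called lower among 12 tested genes of a metal response list, in which 2 were called higher and the median was 0.08. After correction 1 of those 2 was still called higher, and Tfrc and Fth1 were called lower.

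**Figure D4:**
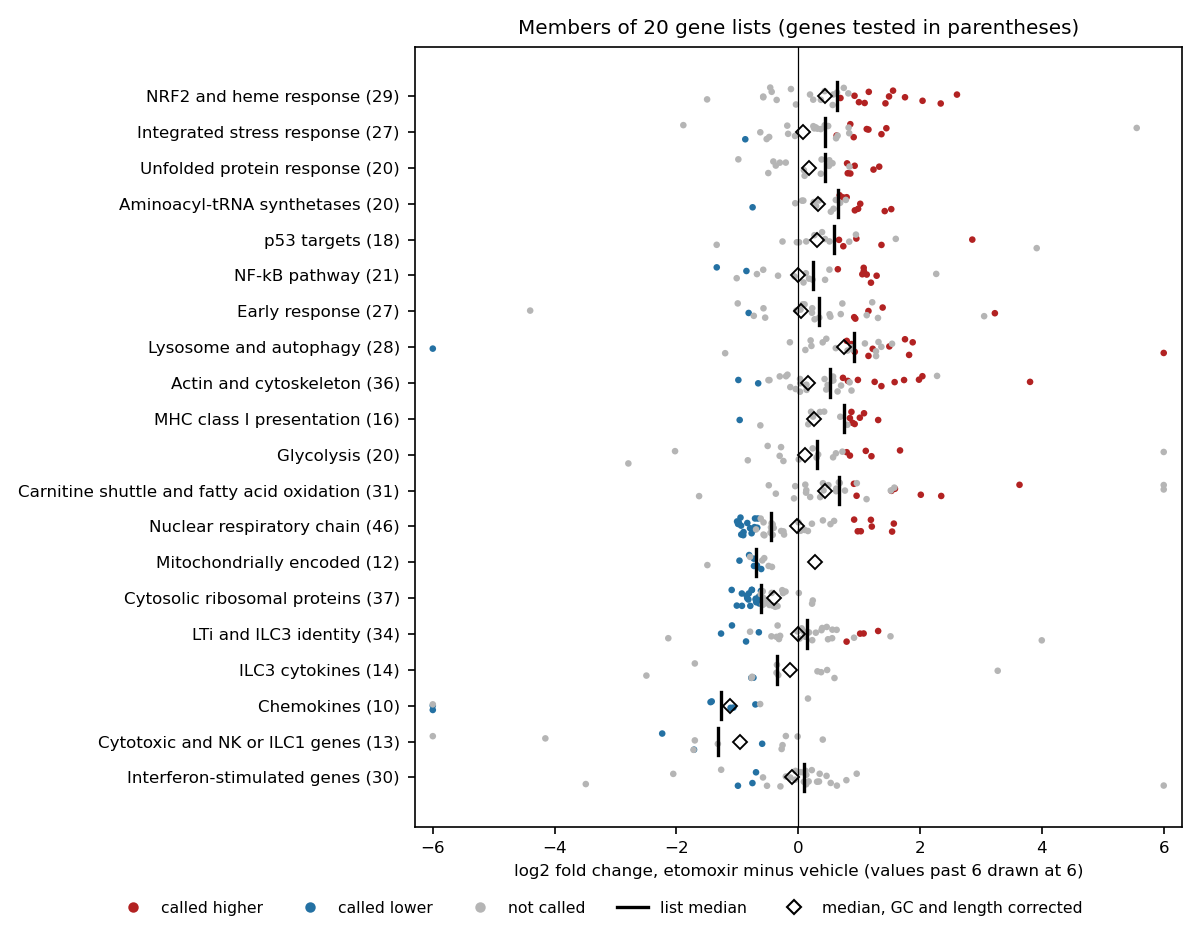
Log2 fold change (etomoxir minus vehicle) of each tested member of 20 gene lists, red where called higher, blue where called lower and grey where not called. Black bars mark the list medians, which run from -1.32 for cytotoxic genes to 0.91 for lysosome genes, and open diamonds the medians after GC and length correction, which lie on the other side of 0 for the mitochondrially encoded, NF-κB, LTi identity and interferon-stimulated lists.

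Enzymes of fatty acid oxidation, the pathway that etomoxir blocks at its entry, were above vehicle. Of 31 tested genes of the carnitine shuttle and β-oxidation 7 were called higher and none lower, with a list median of 0.67, and 5 of the 7 were also called after correction. Cpt2 gave 0.846 and 0.594 against 7.80 and 10.5 CPM (log2 fold change 3.63, SE 1.09, edgeR adjusted p = 0.027). Acaa2, the mitochondrial thiolase, gave 12.3 and 13.5 against 60.1 and 43.4 CPM, Hadha, a subunit of the trifunctional protein, 15.3 and 16.4 against 47.0 and 47.8 CPM, and Hsd17b4, the bifunctional enzyme of peroxisomes, 4.97 and 5.55 against 22.8 and 30.5 CPM. Etfdh, which passes electrons from acyl-CoA dehydrogenases to ubiquinone, gave 18.7 and 17.8 against 40.1 and 65.8 CPM. Cpt1a, the liver-type CPT1 gene, did not pass the test, at 3.60 and 3.96 against 4.40 and 12 CPM (1.12, SE 0.92, adjusted p = 0.534). The lipid droplet coat genes Plin2 and Plin3 rose, Plin2 from 78.1 and 75.3 to 204 and 251 CPM (1.57, SE 0.24, adjusted p = 3.07e-05) and Plin3 from 6.93 and 7.72 to 29.0 and 26.5 CPM. Ppara, the fatty acid receptor that induces many of these enzymes, had 195 counts over the vehicle files and none in either etomoxir library, which is at least 58.4-fold lower against a floor of 3 counts over both. Plin2, Plin3 and Ppara belong to a list of PPAR target and lipid droplet genes with 23 tested members, 3 called higher and 1 lower. In that list 9 members had log2 fold changes above 0 and 14 below, with a median of -0.11. After correction the median was -0.40, with 2 called higher and 2 lower. Acaca, the carboxylase that starts fatty acid synthesis, was called lower by edgeR and not by DESeq2, at 21.6 and 20.6 against 7.36 and 2.31 CPM.

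In glycolysis and the citric acid cycle most calls were upward. Of 20 tested glycolysis genes 5 were higher and none lower, among them Pkm, at 556 and 542 against 1425 and 1103 CPM, and Ldha, at 937 and 941 against 2152 and 1895 CPM (log2 fold change 1.11, SE 0.21, edgeR adjusted p = 0.000336). Of 33 genes of pyruvate entry and the citric acid cycle 6 were higher, including Cs (citrate synthase), at 65.2 and 60.7 against 130 and 138 CPM. After correction 4 of the 5 glycolysis calls and 5 of the 6 upward citric acid cycle calls remained.

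Among respiratory chain and ribosomal protein genes more were called lower than higher, and the number of calls moved with the correction. Of 46 tested nuclear genes of the respiratory chain 7 were called higher and 16 lower. The 16 lower genes had a median transcript length of 901 bases and the 7 higher genes 1916 bases. After correction 4 of the 16, which include Cycs (cytochrome c) at 523 and 535 against 245 and 282 CPM and Cox6c at 645 and 709 against 350 and 404 CPM, and 4 of the 7, which include the ATP synthase genes Atp5b and Atp5a1, were called in the same direction. With GC content alone corrected 4 of the 46 were called higher and 19 lower. Of 12 mitochondrially encoded genes 6 were called lower, for example mt-Nd4 at 1275 and 1363 against 618 and 728 CPM. None of these 6 was called lower after correction, 1 of them was called higher, and their list's median turned from -0.70 to 0.28. Of 37 cytosolic ribosomal protein genes 18 were called lower and none higher, with log2 fold changes from -1.09 (Rpl10a) to -0.61 (Rps18) and a median transcript length of 1023 bases, and 8 of these 18 were also called lower after correction, among 14 in all. With GC content alone corrected 30 of the 37 were called lower, with a median of -0.89 in place of -0.61. A list of MYC and ribosome assembly genes had 27 tested members, with 4 called higher, 4 called lower and a median of -0.13. Among the lower genes Npm1 fell from 871 and 906 to 367 and 426 CPM and Dkc1 from 162 and 165 to 72.2 and 70.1 CPM, and both calls held after correction. None of the 4 upward calls held, and the corrected fit called 2 other members higher and 7 lower.

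Stress pathways of the endoplasmic reticulum and of amino acid supply were called higher in part. In the integrated stress response, kinases that sense stress phosphorylate eIF2α, which favours translation of ATF4 and with it amino acid and tRNA synthetase genes. Of 27 tested genes of that response 7 were higher and 1 lower (Eif4ebp1, at 557 and 540 against 291 and 311 CPM). Trib3, the pseudokinase that restrains ATF4, gave 129 and 123 against 354.6 and 335.4 CPM (log2 fold change 1.45, SE 0.23, edgeR adjusted p = 3.6e-05), Atf3 127 and 129 against 359 and 208 CPM, and Chac1, a glutathione-degrading enzyme, 93.7 and 90.8 against 189 and 158 CPM. Sesn2, Ppp1r15a, Phgdh and Atf4 were the other 4 higher genes. Trib3 and Atf3 were the 2 still called higher after correction. That fit called 2 members lower, Eif4ebp1 and 1 not called before, and the list median was 0.08 in place of 0.43. The ATF4 targets Asns, Psat1 and Mthfd2 were not called.

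The promoters of this list were searched for the CHOP-ATF4 element, TGATGNAA on either strand. It was found in 3 of the 7 genes called higher (42.9%) and in 4 of 15 not called (26.7%), compared with 2.90% of all tested genes with a window and 3.10% of all genes called higher. Atf3 (chr1:191183334-191183583, minus strand) and Chac1 (chr2:119350992-119351241, plus strand) are shown in the same layout as above, with the match in capitals, again on the other strand, starting 110 bases before the start in Atf3 and 193 in Chac1. Trib3, the other of the 3, has its match behind the start.
Atf3: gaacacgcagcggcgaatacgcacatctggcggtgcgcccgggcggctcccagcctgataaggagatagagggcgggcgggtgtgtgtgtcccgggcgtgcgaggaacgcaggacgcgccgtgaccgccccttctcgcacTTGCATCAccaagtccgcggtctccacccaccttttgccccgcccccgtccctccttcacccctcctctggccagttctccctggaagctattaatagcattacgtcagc
Chac1: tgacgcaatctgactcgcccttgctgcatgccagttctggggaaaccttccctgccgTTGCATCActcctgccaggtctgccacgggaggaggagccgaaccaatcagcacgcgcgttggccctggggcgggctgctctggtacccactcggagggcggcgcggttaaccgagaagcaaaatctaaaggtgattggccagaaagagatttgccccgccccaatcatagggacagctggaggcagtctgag

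Of 20 tested aminoacyl-tRNA synthetase genes 8 were called higher and 1 lower. Kars, for lysine, gave 41.4 and 42.8 against 123 and 120 CPM, Mars, for methionine, 65.1 and 62.7 against 174 and 168 CPM, and Iars, for isoleucine, fell from 333 and 329 to 217 and 177 CPM. Of the 8 higher synthetase genes 3 were also called after correction. Of 20 genes of the unfolded protein response 6 were higher, and all 6 were also called after correction. They were Hspa5, the main chaperone of the endoplasmic reticulum, at 611 and 614 against 1180 and 970 CPM, with Pdia4, Creld2, Calr, Dnajc3 and Edem1. The corrected fit called 7 members of this list higher and 1 lower (Manf), with a median of 0.17 in place of 0.44. With GC content alone corrected 6 members were called higher and 1 lower (Sec61b). Of 18 tested p53 target genes 5 were higher, including Cdkn1a, the cell cycle inhibitor p21, at 1274 and 1154 against 2531 and 2198 CPM, and Bbc3, the proapoptotic PUMA, at 1.85 and 2.84 against 12.4 and 20.9 CPM. Bbc3 and Mdm2 were the 2 of these 5 still called after correction. The survival gene Bcl2l1 rose too, from 142 and 131 to 377 and 383 CPM (log2 fold change 1.47, SE 0.22, edgeR adjusted p = 2.47e-05).

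Few cell cycle genes were called. Of 46 tested genes 3 were called higher (Mcm4, Mcm6 and Ccnd3) and 1 lower, shares near those of all genes tested. The lower gene was Mki67 (at 70.3 and 72.9 against 42.0 and 29.0 CPM, a call that neither DESeq2 nor the corrected fit made). Ccnb1, Cdc20 and Plk1, named after their values were seen, drive mitosis and stood at 103, 103 and 21.5 CPM in the first etomoxir library and at 8.37, 15.6 and 1.56 CPM in the second. The vehicle files lay at 19.2 and 20.1, 29.3 and 25, and 1.43 and 1.25 CPM. For these 3 genes the first etomoxir library lay above the other 3 libraries, and none passed the uncorrected test. With GC content alone corrected Ccnb1 and Plk1 were called higher.

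Several of the strongest decreases fell outside the lists. Taf15, an RNA-binding protein of the FET family, fell from 114 and 120 to 27.2 and 25.6 CPM (log2 fold change -2.14, SE 0.29, edgeR adjusted p = 3.21e-06). The noncoding transcripts AW112010 and Mir155hg, the host of a microRNA gene, fell from 2365 and 2422 to 761 and 996 CPM and from 1485 and 1549 to 589 and 602 CPM. The uncharacterized genes Gm36723 and 1110059E24Rik fell from 167 and 171 to 39.8 and 52.9 CPM and from 476 and 483 to 150 and 188 CPM. Tgfb3, which encodes a transforming growth factor β, had 351 counts over the vehicle files and none in the etomoxir libraries, at least 105-fold lower. Tgfb3 and Ppara are among 41 of the 514 called lower genes that had no count in either etomoxir library. Of these 41 genes 8 were detected in all 4 libraries of the palmitic acid experiment. Eif2s2, a subunit of eIF2, Ppia (cyclophilin A), Dennd4a, Macf1 and Ranbp2 were also among the 20 called lower genes with the smallest p, with log2 fold changes between -1.35 and -1.07. No strand setting is stated for the counting, so reads from a gene and from an overlapping gene on the other strand may be mixed in these values.

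A set of the largest increases rests on genes with few or no vehicle counts. Of the 1005 genes called higher 115 had no count in either vehicle file and 213 had fewer than 20 counts, and 101 of the 115 were detected in all 4 libraries of the palmitic acid experiment. Abhd8 had no vehicle count and stood at 31.6 and 20.5 CPM with etomoxir, at least 296-fold higher against a floor of 3 counts over the vehicle sum. Coasy, which catalyses the last steps of coenzyme A synthesis, had none and stood at 14.9 and 22.7 CPM, at least 214-fold higher. Thop1, Galnt12 and Sh3bp5l showed the same pattern. Zfp764 had 2 vehicle counts against 474 and 356 with etomoxir, a ratio of 462 with a counting interval from 127 to 3820. Spg7, a mitochondrial protease subunit, had 21 vehicle counts, 0.634 and 0.594 against 40.1 and 41.7 CPM (log2 fold change 6.04, SE 0.61, edgeR adjusted p = 6.93e-09). Within the etomoxir pair 697 genes had no count in 1 library and at least 20 in the other. Whether such zeros reflect the cells or the amplified cDNA was not tested. Without genes at 0 in either arm 1291 genes were called.

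Reads of other cell types' markers were present at low to moderate levels. In a bulk library fewer cells of a type and less RNA per cell cannot be told apart. The T cell markers summed to 487 and 466 CPM with vehicle and to 709 and 704 CPM with etomoxir. Of 9 tested, Zap70 and Lat, which innate lymphocytes also express, were called higher, though not after correction (adjusted p = 0.55 and 0.35), and Trac stood at 11.2 and 10.5 against 0.629 and 2.45 CPM without passing the test. The 11 B and plasma cell markers summed to 25.5 and 23 CPM against 16.0 and 24.4 CPM. Of the 4 tested, Ighm, the µ heavy chain, at 0 and 0 against 1.89 and 11 CPM, was called higher. Stromal and endothelial markers summed to 314 and 302 against 407 and 293 CPM, nearly all of it Pecam1, which leukocytes also express, at 312 and 300.0 against 401 and 292 CPM. Myeloid and mast cell markers summed to 100.4 and 101 against 102 and 97.1 CPM, most of it Xcr1, the receptor of XCL1, at 86.0 and 86.2 against 95.1 and 75.2 CPM. Cd8a, Cpa3, Mcpt2 and Fcer1a had no count in any library. Epithelial markers summed to 34.7 and 34.9 against 71.4 and 18.2 CPM, and erythroid markers to 17.9 and 16.8 against 4.46 and 2.18 CPM, with no member of these 4 lists called. Their part in the results above was not tested.

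Separate LTi cultures of the same series, from the small intestine of adult B6 mice and kept for 3 days with or without palmitic acid and no etomoxir, share no sample with this experiment. There edgeR called 1 gene higher (0.00724% of 13811 tested) and 36 lower (0.261%) with palmitic acid. Of the 12788 genes tested in both experiments 8 were called in both, which is 0.549% of the etomoxir calls and 21.6% of the palmitic acid calls. Plin2, the lipid droplet coat gene, was the 1 called higher in both, and with palmitic acid it stood at 392 and 407 CPM without and 755 and 686 CPM with the fatty acid (log2 fold change 0.85, SE 0.08, edgeR adjusted p = 0.00492). Ccl17 was the 1 called lower in both, at 42.4 and 40.04 CPM without and 13.9 and 12.4 CPM with palmitic acid. The other 6 were higher with etomoxir and lower with palmitic acid, among them Lamp1, at 485 and 512 CPM without and 248 and 226 CPM with it. For Hmox1 the palmitic acid log2 fold change was 0.35 (adjusted p = 0.64), for Tubb2a -0.03, for Coro1a -0.10 and for Tiparp -0.57 (adjusted p = 0.141). Xcl1, Ccl20, Cxcl9 and Gzmc were too low in those cultures to be tested.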

How the data were processed

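Sorted LTi cells were lysed for SMART-Seq HT cDNA amplification, and NEBNext libraries were sequenced in 150-base read pairs, per the labels' protocols. The authors deposited raw read counts per gene, made with HISAT2 2.1.0 and featureCounts of Subread on mm10, per the submitters' processing notes, and no strand setting is stated. No count was altered and 0 columns belonged to another series. The 2 vehicle files were summed. Genes passing filterByExpr were tested with edgeR 4.0.16 (robust quasi-likelihood test, TMM scaling, Benjamini-Hochberg adjustment over all tested genes, threshold 0.05) in R 4.3.3, with DESeq2 1.42.0 and limma 3.58.1 as alternatives. The labels do not say that replicate numbers pair the samples.

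Genes named were the deletion, sorting and cytokine genes, the 20 called per direction with the smallest p and the 20 with the largest fold (10 CPM or more in 1 group, groups apart), and the 4 members of each of 54 lists with the smallest p. Other members were named after their values were seen, and some genes that the rule names are not reported here. The genes and lists were chosen with earlier results of these data known. Alternatives were other scalings and filters, each library left out, a replicate block and a spread shared with the palmitic acid libraries, and, added after the data were seen, correction for GC content and transcript length, removal of genes at 0 and protein-coding genes alone. Fold bounds used a floor of 3 counts, and counting intervals cover counting error only. Other samples of the series are not analysed here.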

Additional observations from a re-analysis of the deposited data

How the results depend on the processing

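The calls rest on 1 vehicle sample, 1 residual degree of freedom from the etomoxir pair and a spread borrowed across genes, and their number moves with how the spread is estimated. edgeR called 1519 genes (1005 higher, 514 lower). With both vehicle files as separate samples and no replicate block it called 5303 (2879 and 2424), and with the replicate number as a block 4644 (2579 and 2065). The same-numbered samples' deviations correlated at 0.0191 over 7427 genes, which says nothing of pairing, since the vehicle files were counted as 1 sample. With the spread shared with the palmitic acid libraries it called 2597 (1663 and 934), and limma-voom called 0. Leaving out 1 library in turn gave 1320 to 3133 calls (908 to 1919 higher, 409 to 1214 lower), with 2736 (1757 and 979) without the first etomoxir library and 3133 without the second. Here leaving out an etomoxir library used the shared spread, which assumes that the lone sample varies like the other groups. The other 10 alternatives gave 1284 to 1653 calls. Of the 164 named genes called, 104 were called in every alternative but limma-voom, in which none was, and 39 lost the call after GC and length correction.

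Of the called genes named, Ccl17 and Csf2 turned direction after GC and length correction, with log2 fold changes of 0.13 for Ccl17 and 0.025 for Csf2. Among genes not called, the same correction turned Ccr6 (-0.079), Cd74 (-0.13), Cxcl16 (-0.19) and Il22 (0.34), and GC correction alone turned Ccr6 (-0.062) and Cd74 (-0.25). Without the first etomoxir library Ccnb1 (-1.25) and Cdc20 (-0.83) turned, and without the second Cd74 (-0.19). The log2 fold change of Nfe2l2, which was -0.04 by edgeR and lay between -0.18 and 0.04 over the alternatives, was 0.0127 with both vehicle files, 0.0118 with the block, 0.0113 without the first vehicle file, -0.039 without the second and 0.0405 by library totals. For the uncalled markers, the log2 fold change of Pecam1 turned to -0.17 after GC and length correction and -0.0933 without the first etomoxir library, and the log2 fold change of Xcr1, -0.016 by edgeR, to 0.033 with both vehicle files, 0.023 with the block, 0.00525 without the second vehicle file, 0.00585 without the first, 0.11 without the second etomoxir library, 0.064 by library totals and 0.18 after GC correction. Causes were not tested.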
